A study of Mus musculus with 8 samples.

Results

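Rgs5-high smooth muscle cells of the mouse cerebral cortex were single-cell transcriptomes that combined high contractile RNA with high RNA for Rgs5, a regulator of G protein signalling found in pericytes and vascular smooth muscle. They were selected on measured values in UMIs per 10000 UMIs of the cell (a UMI, or unique molecular identifier, marks 1 captured RNA molecule). A member had at least 40 for the sum of Acta2, Tagln, Myh11 and Myl9, at least 20 for Rgs5, under 20 for the endothelial sum of Cldn5, Flt1 and Pecam1, and under 20 for the myeloid sum of C1qa, C1qb and Ctss. Of 50254 cells kept in 7 libraries, 1752 (3.49%) were members, and no 2 member cells of different libraries shared a barcode. The rule found 1968 cells before its endothelial and myeloid limits, which removed 216.

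The study compared cortex of mice aged 8 weeks in 2 experiments on laminins, the cross-shaped proteins of the vascular basement membrane. In the first, mice without the laminin alpha 4 chain (Lama4-/-) were set against their wild-type controls (WT for Lama4-/-), and in the second, Tek-Cre:Lama5-/- mice against other wild types (WT for Tek-Cre:Lama5-/-). Tek-Cre is a recombinase driven by the promoter of Tek, which is active in endothelial cells and in some blood cells, so smooth muscle itself is not the cell type that this driver targets. Cells of each group came from 3 pooled brains, and both libraries of a group share that pool, so replicate spread here does not measure the spread between mice. Each wild-type group and the Tek-Cre:Lama5-/- group had 2 libraries. The 2 deposited Lama4-/- samples held identical values and were counted as 1 library, so that comparison has no replicate check.

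Vascular smooth muscle wraps arterioles and venules and sets their diameter through actin and smooth muscle myosin, while pericytes cover capillaries, carry little contractile actin and are known for Rgs5, Pdgfrb and the potassium channel formed by Kcnj8 and Abcc9. Both cell types sit inside the vascular basement membrane, where laminins are bound by integrins and dystroglycan. Notch3 signalling from endothelial ligands maintains arterial smooth muscle identity.

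Members numbered 185 and 195 in the WT for Lama4-/- libraries, 108 in Lama4-/-, 311 and 330 in WT for Tek-Cre:Lama5-/-, and 294 and 329 in Tek-Cre:Lama5-/-. Their median depth ran from 7634 to 8216 UMIs in the Lama4 experiment, was 5120 and 4852 in the Lama5 controls, and was 4175 and 3706 in Tek-Cre:Lama5-/-. The members' contractile sum had a library median between 172 and 262 and Rgs5 had one between 58.2 and 94.1 per 10000 UMIs. Just inside the Rgs5 limit lay 120 members between 20 and 25, and just outside it 150 cells between 15 and 20. Just inside the contractile limit lay 74 members between 40 and 50, against 125 cells between 30 and 40 outside it. The members are therefore a range of 2 continuous measures rather than a separated cluster.

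Levels from here on are UMIs summed over the cells of a class in a library, scaled to the same total in each library (CPM). The targeted genes were read first. Lama4 (chromosome 10, 38965515 to 39110188, plus strand) had 91 and 97 UMIs in members of the controls, 61.1 and 60.6 CPM, and 0 UMIs of 760780 in Lama4-/-. Against a floor of 3 counts per library that is at least 15.4-fold lower. Lama5 (chromosome 2, 180176373 to 180225859, minus strand), whose alpha chain belongs to another laminin of the endothelial basement membrane, was at 116 and 122 CPM in members of the Lama4 controls and 154 in Lama4-/-. In members of the Lama5 experiment it was at 126 and 98.6 CPM in the controls and 120 and 148 in Tek-Cre:Lama5-/-, on totals scaled by the trimmed mean of M-values, TMM (log2 fold change 0.26, edgeR adjusted p = 0.386). The groups overlapped. In endothelial-gated cells of the same libraries Lama5 was at 44.3 and 43.2 CPM in controls and 25.4 and 28.0 in Tek-Cre:Lama5-/-. A 3′ tag does not show whether a transcript lacks an internal exon.

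Rgs5 itself (chromosome 1, 169655501 to 169695813, plus strand, GRCm38) ran from 7286 CPM in Lama4-/- to 10402 in a control of Tek-Cre:Lama5-/-. Among contractile cells under the Rgs5 limit (948 Rgs5-low smooth muscle cells) Rgs5 stood at 574 to 913 CPM, and among 1422 Rgs5-high cells below the contractile limit at 7318 to 9770. Acta2, smooth muscle actin, was 6715 to 12319 CPM in members, 11765 to 20384 in the Rgs5-low cells and 73.3 to 138 below the contractile limit. These differences follow from the rule. Among the further marker genes, Higd1b had a median of 849 CPM in members, 159 in Rgs5-low cells and 1612 below the contractile limit. Notch3, the mural Notch receptor, had medians of 761, 374 and 737 CPM in the same order, and Ndufa4l2, a mitochondrial protein of hypoxic metabolism, 834, 209 and 1497. Of the 5 proposed markers, Rgs5 and Tagln were part of the rule, and the other 3 were present in every library's members.

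**Figure D1:**
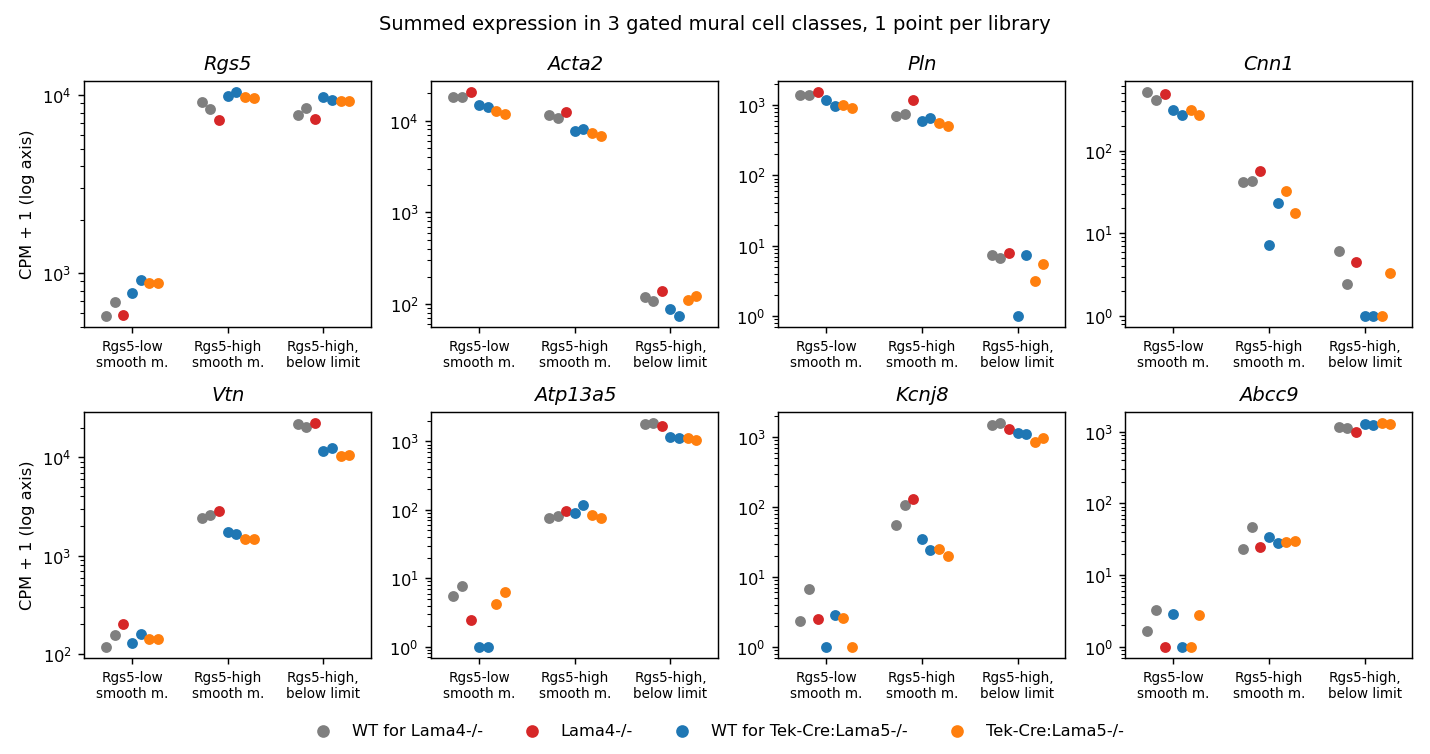
Level of 8 genes (CPM + 1, log axis) summed over the cells of 3 gated classes in each of 7 libraries, 1 point per library and coloured by group. Members, in the middle of each panel, lie between the other classes for Cnn1, Vtn, Atp13a5, Kcnj8 and Abcc9, while Rgs5 and Acta2 were used to define the classes.

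For the pericyte genes named here, members lay between the neighbouring classes. The comparison is a description with no test, because the classes were cut on measures from the same cells. Vtn, the matrix protein vitronectin and an abundant pericyte transcript, had a median of 1755 CPM in members, against 141 in Rgs5-low cells and 12370 below the contractile limit. Abcc9, the sulfonylurea receptor subunit, was at 22.2 to 46.2 CPM in members, 0 to 2.28 in Rgs5-low cells and 989.7 to 1319 below the limit. Kcnj8, its channel partner, was at 18.8 to 131 CPM in members and 854 to 1589 below the limit. Members therefore carried a small part of the channel RNA of the cells below the limit, with no overlap between the classes.

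Of 26 contractile genes not used by the rule 25 reached 50 CPM in members or Rgs5-low cells. Of these 21 were lower in members in 7 of 7 libraries and 3 were higher, with a median log2 ratio of -0.68. Over the 3333 genes at that level 421 were lower and 759 higher in 7 of 7 libraries, with a median of 0.09. Cnn1, calponin, showed the widest gap on this list among genes of that level, at a median of 31.8 CPM in members and 312 in Rgs5-low cells. Smtn, smoothelin, had medians of 99.3 and 235 CPM, and Pln, phospholamban, which restrains the calcium pump of the sarcoplasmic reticulum, 650.1 and 1170. Below the contractile limit Pln was at 0 to 6.91 CPM against 509 to 1187 in members, and Myocd, the coactivator of serum response factor, at 0 to 6.81 against 58.1 to 105.

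Among the genes that stood highest over Rgs5-low cells were Atp13a5 (median 82.6 against 3.17 CPM), Lin7a, Ephx3 and Ccnd1 (195 against 17.9), which encodes cyclin D1. Casq2, the calcium-storing calsequestrin, was at 234 to 281 CPM in members and 22.9 to 37.3 in Rgs5-low cells, and is thus a calcium-handling gene that was higher where most contractile genes were lower. Enpep, an aminopeptidase of the angiotensin pathway, had medians of 156 and 28.5 CPM, and Art3 107 and 18.7. At the other end, members were lowest relative to Rgs5-low cells for Pi15 (4.37 against 59.8 CPM), Cnn1, Ptgis (26.2 against 252), which makes prostacyclin, and Thbs1 (38.1 against 302), which encodes thrombospondin. The elastic fibre protein gene Eln (26.0 against 112), the matrix gene Npnt (14.8 against 90.5), the ryanodine receptor gene Ryr2 (12.5 against 61.6) and the large-conductance potassium channel gene Kcnma1 (16.8 against 87.2) followed. Each of these was lower in members in 7 of 7 libraries.

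Over the cells below the contractile limit, members were highest for Pln, Fbxl22, Sncg (median 759 against 15.1 CPM), Pdlim3, Ltbp1 and Kcnab1. They were lowest for Ggt1 (3.18 against 252), Abcc9, Uchl1 (11.9 against 434), Kcnj8, Nts and Pla1a. Members were also set against all other cells kept, of which 28063 were endothelial-gated. Olfr558, an olfactory-type G protein-coupled receptor gene, had the highest median log2 ratio (5.54), at 275 to 421 CPM in members and 5.28 to 8.29 in the rest. Nrip2, Map3k7cl, Ano1, Rbm24 and Rasl11a came next. Ano1, a calcium-activated chloride channel of smooth muscle, was at 334 to 422 CPM in members and 9.68 to 16.6 in the rest. Npy1r, a receptor for the vasoconstrictor neuropeptide Y, was at 328 to 483 against 11.4 to 22.7. From Olfr558 to Npy1r, none of the genes named against the rest was among those highest over Rgs5-low cells. This ratio does not show whether they separate members from other smooth muscle.

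Members were also described by their own Rgs5 level, which the rule used, as was the contractile sum. These values are descriptions with no test, taken from the same UMIs of the same cells. Between the lower and the upper tertile of Rgs5 within each library, the median contractile sum was 346 and 187 per 10000 UMIs in the first control of Lama4-/- and 223 and 118 in the second Tek-Cre:Lama5-/- library. Of the 26 contractile genes outside the rule 25 reached 50 CPM in a tertile, and 19 of these were lower in the upper tertile in 7 of 7 libraries, beside 311 of 3411 genes at that level. Vtn had a median of 843 CPM in the lower and 3106 in the upper tertile, Art3 41.5 and 207, and Casq2 102 and 473. Csrp1, a cytoskeletal LIM protein gene of smooth muscle, had 1133 and 288, Pln 971 and 273, and Eln 46.6 and 7.35. Cnn1 had a median of 76.0 CPM in the lower tertile and a median over libraries of 0 in the upper tertile. Of 24 immediate-early genes, which respond within minutes to stimuli and to tissue dissociation, 21 reached 50 CPM and 14 were lower in the upper tertile in 7 of 7 libraries, and Nr4a1 had medians of 1604 and 944 CPM. The upper tertile was also the shallower in every library, for example 4983 against 5708 UMIs per cell in the first Lama5 control, and the part of depth was not tested.

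Markers of other cell types were low but not zero in members. The summed level of 12 oligodendrocyte markers ran from 110 to 130 CPM in the Lama4 experiment, was 3422 and 1203 in the Lama5 controls, and was 379 and 1893 in Tek-Cre:Lama5-/-. That of 12 astrocyte markers ran from 1789 to 2077 CPM over all libraries, that of 10 microglial markers outside the rule from 1956 to 2958, and that of 12 endothelial markers outside the rule from 674 to 1013. The 10 choroid plexus markers summed to 25.6 to 158 CPM in 6 libraries and to 1133 in Lama4-/-. In that library 123 cells passed a choroid plexus limit, against 27 and 25 in its controls. Genes more than 10 times higher in a gated class of another cell type are given below as possible free RNA. The mark leaves out Rgs5-low cells and cells below the contractile limit, so carry-over of their RNA is not marked and was not tested.

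The share of members differed in the Lama4 experiment and hardly at all in the Lama5 experiment when all cells kept were the denominator. In Lama4-/- 2.02% of cells were members (exact 95% binomial interval 1.66 to 2.43), against 3.31% (2.85 to 3.81) and 3.66% (3.17 to 4.20) in its controls. The interval lies below both controls, but it covers counting error of 1 library of 1 pool. In Tek-Cre:Lama5-/- the share was 3.53% and 3.85%, against 3.63% and 3.87%, a difference of -0.07 percentage points (exact two-sided permutation p = 0.667). In bulk sums and shares alike, fewer cells of a type and less RNA per cell cannot be told apart.

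Taken as a share of all contractile-gated cells, members were fewer in both knockouts. They were 39.3% (33.5 to 45.3) in Lama4-/- against 52.7% and 50.8% in its controls. They were 69.8% and 73.3% in Tek-Cre:Lama5-/- against 78.5% and 77.8% in its controls, a difference of -6.63 percentage points with no overlap between groups (KO 71.6 ± 2.43, WT 78.2 ± 0.499, SD, n = 2 each). The exact two-sided permutation p was 0.33, the smallest that 2 libraries against 2 can give. The wild-type pools differed from each other by more than either knockout differed from its own controls. Rgs5 summed over all contractile-gated cells, members or not, was 2994 CPM in Lama4-/- (exact 95% Poisson interval 2921 to 3069) against 4821 and 4351, and 6841 and 6947 CPM in Tek-Cre:Lama5-/- against 7592 and 8024. Since Rgs5 is the measure that divides these cells, the sum partly restates the share and is no separate support for it.

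**Figure D2:**
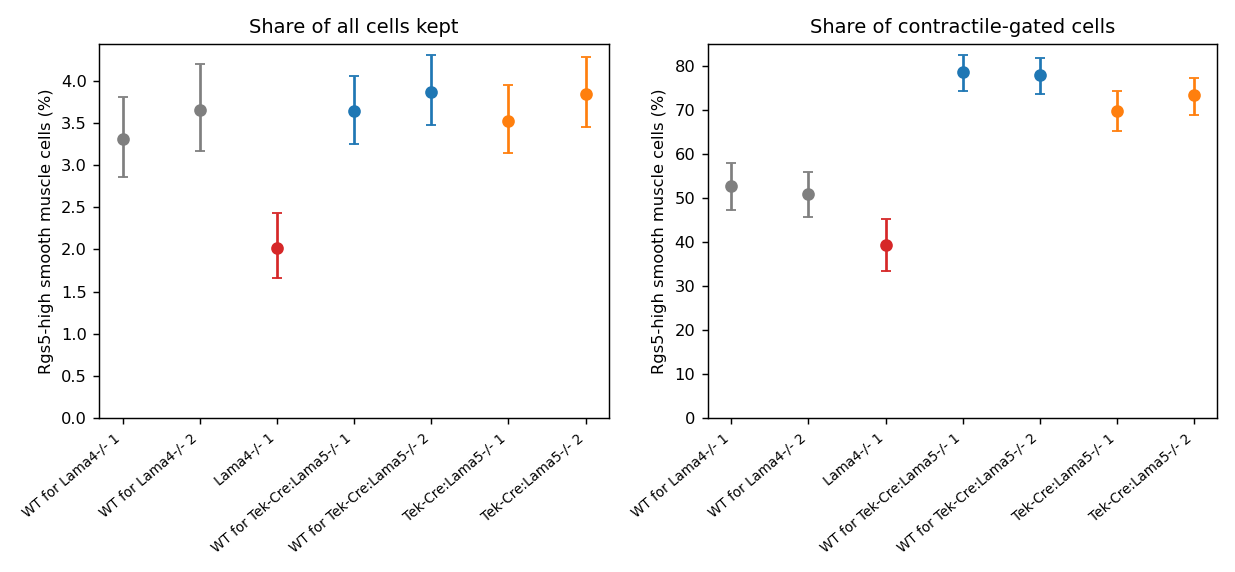
Members as a percentage of all cells kept (left) and of contractile-gated cells (right) in each library, with exact 95% binomial intervals. The Lama4-/- library lies at 2.02% and 39.3%, below its controls on both scales, and the Tek-Cre:Lama5-/- libraries lie below their controls on the right only.

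Laminin RNA in members was otherwise dominated by Lamb2, at 342 to 497 CPM over all libraries, with Lamc1 at 160 to 217, Lamc3 at 99.3 to 146 and Lama2 at 62.5 to 100.1. None of 7 laminin genes tested passed in the Lama5 comparison, in which 3.35% of all genes did. Lama5 was higher in members than below the contractile limit (102 to 154 against 4.26 to 15.5 CPM), and Lama4 was lower in the wild types and Tek-Cre:Lama5-/- (45.3 to 61.1 against 104 to 289). Counts from 3′ tags rank transcripts by number and carry no gene length term.

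In members, Tek-Cre:Lama5-/- and its controls differed for 305 of 9097 genes at an adjusted p under 0.05 (edgeR quasi-likelihood test), which is 3.35%. Higher were 249 (2.74%) and lower 56 (0.616%), with a median log2 fold change of -0.01 over all genes tested. Of the 305, 32 reached a log2 size of 1. Of 94 ribosomal protein genes 21 rose and 0 fell, with a median of 0.14. DESeq2 called 109 genes, edgeR without a filter on low counts 12, and edgeR with 1 library left out between 200 and 405. Of the called genes 17 were possible free RNA, 10 higher and 7 lower. The values below are CPM on totals scaled by TMM, with the controls given before the knockouts.

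The largest rise among called genes of at least 30 CPM that were not marked as possible free RNA was that of Crem, a cyclic AMP response modulator (chromosome 18, 3266048 to 3337748, minus strand). It stood at 88.0 and 72.6 CPM in controls and 236 and 233 in Tek-Cre:Lama5-/- (log2 fold change 1.54, SE 0.11, adjusted p = 1.34e-08). Both knockout libraries lay far above both controls. Next were Tuba4a, a tubulin gene (12.6 and 23.6, then 42.0 and 46.8), and Adamts9, a protease of extracellular proteoglycans (53.3 and 56.9, then 129 and 135). Mt1, the metal-binding metallothionein, rose from 450.3 and 549 to 1217 and 1029 CPM (log2 1.17, SE 0.08). In the 2 Lama4 controls, which share 1 pool, Mt1 was at 709 and 1456 CPM (unscaled), a spread that this SE does not include. Crispld2, a secreted protein gene, rose from 255 and 289 to 609 and 516. Usp38, Tcp11l2, Tnfrsf12a (the receptor of the cytokine TWEAK), Homer1, the aggrecanase gene Adamts4 and Uap1 rose by 0.95 to 1.08 on the log2 scale. Gm42418, a non-coding locus that overlaps ribosomal RNA sequence, went from 25771 and 25638 to 52622 and 54609 CPM. It took 2.67% and 2.65% of member UMIs in controls and 5.08% and 5.30% in the knockouts, against 0.551% to 0.585% in the Lama4 experiment. With Gm42418 and 2 related genes left out of the totals 301 genes were called.

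The lowest were Hspa1b and Hspa1a, then Gm14005, Inafm1, Gm26532 (262 and 266, then 165 and 161), Tmem165 and Tmem100. Ackr3, a scavenging chemokine receptor, fell from 359 and 396 to 240 and 270 CPM (log2 -0.57, adjusted p = 0.000329). Ifitm1, Klf2, Hes1 and Rnf152 completed the 12 lowest, at log2 -0.56 to -0.52. Of the called genes 303 were also tested between the wild-type pools, and 178 of these were called there, beside 1673 of 9489 genes (17.6%). The difference between pools was at least as large as that in the knockout for 143 of the 303 (47.2%). Over all 8985 genes tested in both this share was 61.9%. That comparison shares the Lama5 controls, so values stand side by side: for Crem 1.54 in the knockout and 1.21 between pools, for Gm26532 -0.70 and 2.43, for Mt1 1.17 and -1.06, and for Ackr3 -0.57 and 0.00.

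**Figure D3:**
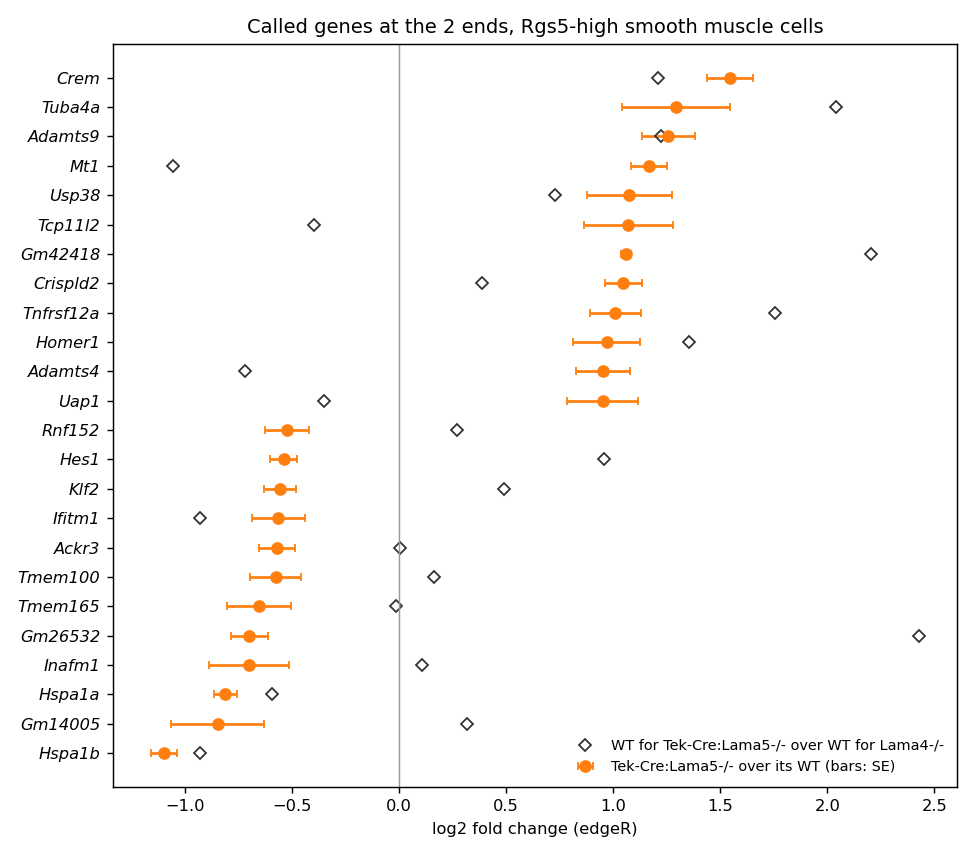
Log2 fold change (edgeR) of the 12 highest and 12 lowest called genes of at least 30 CPM in members, for Tek-Cre:Lama5-/- over its controls (orange, bars are SE) and for the Lama5 controls over the Lama4 controls (open diamonds), which share the Lama5 controls. Crem lies at 1.54 and Hspa1b at -1.09 in the knockout, and for Gm26532, Hes1 and Mt1, among others, the diamonds lie on the other side of zero.

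Immediate-early genes moved in both directions. Of 24 tested, 7 rose and 5 fell, beside 2.74% called higher and 0.616% lower among all genes, 12 did not pass, and their median log2 fold change was 0.05. All 3 members of the Nr4a family, orphan nuclear receptors induced by cyclic AMP and calcium, rose. Nr4a1 (chromosome 15, 101254269 to 101274795, plus strand) went from 1302 and 1349 CPM to 1793 and 1612 (log2 0.36, SE 0.05, adjusted p = 0.000428). Nr4a2 (chromosome 2, 57106830 to 57124003, minus strand) went from 472 and 526 to 851 and 888 (log2 0.80, SE 0.07, adjusted p = 1.05e-07). Nr4a3 (chromosome 4, 48045153 to 48086447, plus strand) went from 194 and 217 to 407 and 375 (log2 0.93, SE 0.08, adjusted p = 4.49e-07). For each of the 3 the groups did not overlap. Fosb, Fosl2, Egr1 and Ier3 rose as well, by 0.21 to 0.53. Fos, the partner of Jun in the AP-1 factor, fell from 4606 and 4312 to 3477 and 3621 CPM (log2 -0.33), and Jun from 2604 and 2622 to 2237 and 2161 (log2 -0.25). Btg2, Dusp1 and Klf2 fell by 0.24, 0.23 and 0.55 on the log2 scale. Between the wild-type pools Nr4a1, Nr4a2 and Nr4a3 were higher in the Lama5 controls by 1.20, 1.61 and 1.69, and Fos by 0.59.

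The sequence before the start of the Nr4a genes is shown because these 3 moved together and carry the letters TGACG, read on the other strand as CGTCA, the core of the cyclic AMP response element. Capitals mark each match in the 250 bases before the RefSeq start (GRCm38.p6, gene strand, 5′ to 3′), which for Nr4a1 and Nr4a3 lies inside the span of the longer GENCODE gene. The windows are chr15:101266596-101266845 (plus), chr2:57124004-57124253 (minus) and chr4:48045055-48045304 (plus).
Nr4a1: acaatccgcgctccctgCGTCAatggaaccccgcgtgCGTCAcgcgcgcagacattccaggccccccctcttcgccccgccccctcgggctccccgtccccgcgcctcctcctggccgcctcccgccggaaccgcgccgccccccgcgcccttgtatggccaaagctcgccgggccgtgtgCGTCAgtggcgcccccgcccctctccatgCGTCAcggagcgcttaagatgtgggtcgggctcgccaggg
Nr4a2: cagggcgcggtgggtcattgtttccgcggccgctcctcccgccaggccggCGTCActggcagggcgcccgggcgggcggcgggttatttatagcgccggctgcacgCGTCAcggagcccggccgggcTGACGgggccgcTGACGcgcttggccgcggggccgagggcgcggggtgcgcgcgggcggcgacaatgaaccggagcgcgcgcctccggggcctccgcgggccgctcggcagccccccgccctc
Nr4a3: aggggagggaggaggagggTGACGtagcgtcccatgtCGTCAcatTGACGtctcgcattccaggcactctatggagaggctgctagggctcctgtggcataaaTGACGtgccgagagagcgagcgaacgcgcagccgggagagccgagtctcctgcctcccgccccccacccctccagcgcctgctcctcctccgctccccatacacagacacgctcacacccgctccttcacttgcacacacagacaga
Each window held 4 matches. Of 24 immediate-early genes 20 had a promoter in the table and 12 of these held the core, Fos and Fosb among them, against 17.8% of 32851 promoters. Genes that rose and genes that fell both carried this core, and a match is a description of letters, not a site in use. The full element, TGACGTCA, was in none of the Nr4a windows. Among the immediate-early genes with a promoter only Btg2 and Dusp1 held the full element, and both genes fell. Of all promoters 1.546% held it.

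Heat shock genes moved in part. Of 18 tested, 1 rose, 3 fell and 14 did not pass, beside 2.74% called higher and 0.616% lower among all genes, with a median log2 fold change of -0.08. Hspa1b (chromosome 17, 34956436 to 34959238, minus strand), an inducible Hsp70 chaperone, fell from 1317 and 1231 CPM to 619 and 575 (log2 -1.09, SE 0.06, adjusted p = 5.63e-10). Hspa1a (chromosome 17, 34969190 to 34972156, minus strand) fell from 2214 and 2130 to 1177 and 1303 (log2 -0.81, SE 0.05, adjusted p = 5.46e-09). Both genes were lower in each knockout library than in each control. Their reads may be split between near-identical copies, so their levels are uncertain as separate genes. The wild-type pools differed for both. On unscaled totals Hspa1b was at 2625 and 2437 CPM in the Lama4 controls and 1363 and 1271 in the Lama5 controls. Hspa1a was at 3617 and 3215 CPM in the Lama4 controls and 2290.5 and 2200 in the Lama5 controls. Hspb1, a small heat shock protein, fell by 0.26, and Hspa5, a chaperone of the endoplasmic reticulum, rose from 549 and 527 to 692 and 666 CPM. Hspa8, Hsp90aa1 and Hsp90ab1, abundant chaperones, had log2 fold changes of -0.02, -0.05 and 0.03.

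The Hspa1a and Hspa1b windows are shown because the genes moved together and each holds GAANNTTC, the core of a heat shock element, in capitals (chr17:34972157-34972406 and chr17:34959239-34959488, both minus strand, GRCm38.p6, from RefSeq). The windows were identical at 247 of 250 bases.
Hspa1a: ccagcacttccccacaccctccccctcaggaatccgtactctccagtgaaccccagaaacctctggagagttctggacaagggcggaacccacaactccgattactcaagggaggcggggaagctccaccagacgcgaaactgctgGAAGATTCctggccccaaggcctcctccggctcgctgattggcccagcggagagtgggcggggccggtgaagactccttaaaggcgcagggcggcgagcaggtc
Hspa1b: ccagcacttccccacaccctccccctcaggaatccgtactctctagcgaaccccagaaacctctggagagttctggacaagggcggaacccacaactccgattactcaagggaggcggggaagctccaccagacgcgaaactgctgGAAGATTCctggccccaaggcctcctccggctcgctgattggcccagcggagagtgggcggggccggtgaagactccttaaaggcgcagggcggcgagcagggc
The match began 104 bases before the start in both. Of 18 heat shock genes 14 had a promoter available, 21 promoters in all, and 7 genes held this core in any of theirs. Of all promoters, counted singly rather than by gene, 6.69% held it. Beside Hspa1a and Hspa1b the 7 genes were Dnaja1, Hspb1, Hspb6, Hspd1 and Hspe1. Of these Hspb1 fell, as given above, and the rest did not pass.

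**Figure D4:**
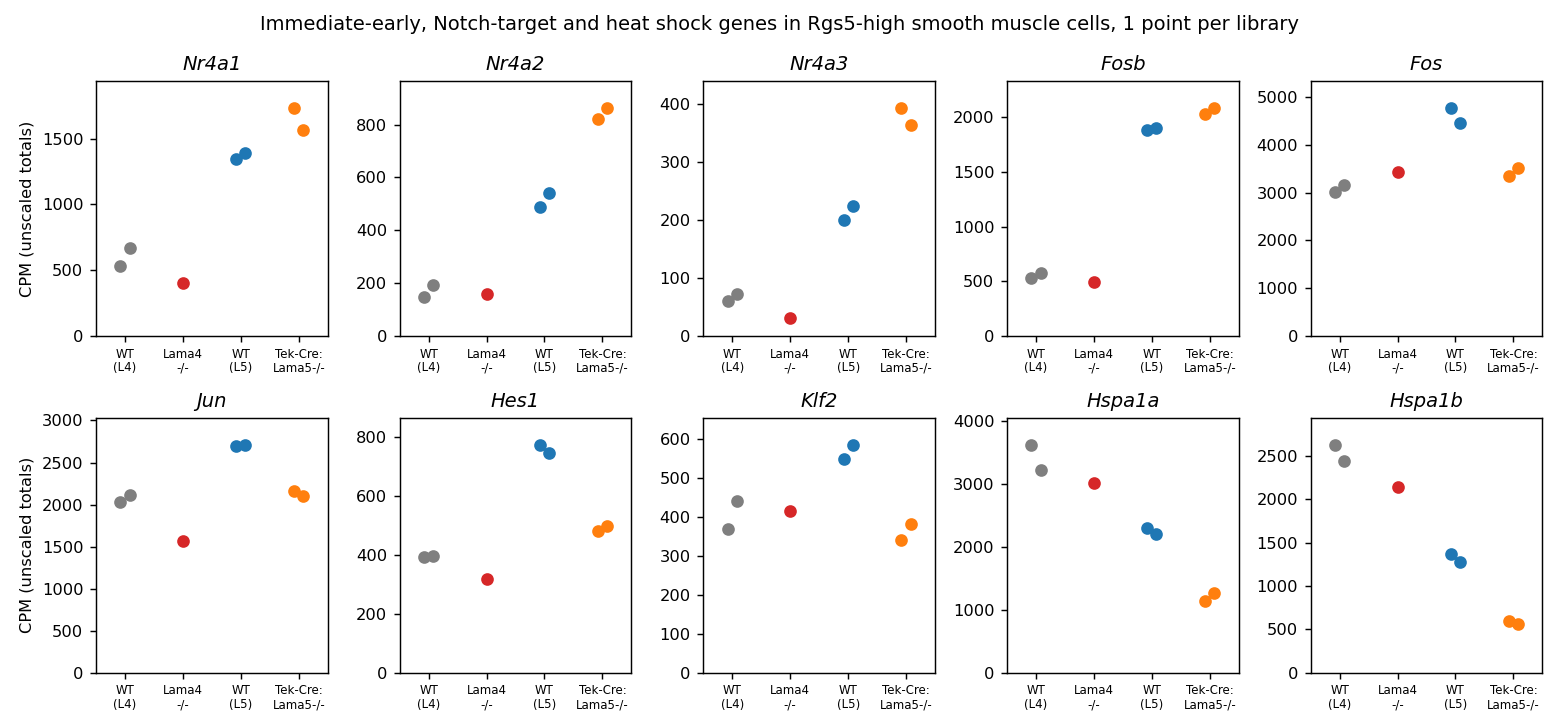
Level (CPM on unscaled totals, axis from 0) of 10 immediate-early, Notch-target and heat shock genes in members, 1 point per library and 4 groups. The 3 Nr4a genes are highest in Tek-Cre:Lama5-/-, and Hspa1a and Hspa1b are lowest there. The wild-type pools differ from each other for Nr4a1, Fosb, Hes1, Hspa1a and Hspa1b, among others.

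Acta2, Tagln, Myh11 and Myl9 were part of the rule and were not tested. Of 25 other contractile genes 0 were called, beside 3.35% of all genes, with a median log2 fold change of 0.03. Mylk, the myosin light chain kinase, was at 1787 and 1796 CPM in controls and 1928 and 1870 in knockouts. Myl6, Cald1, Tpm1 and Tpm2 had log2 fold changes between -0.04 and 0.12. Of 32 ion channel and calcium genes 0 were called, and Ano1 was at 371 and 383, then 384 and 435. Of 21 Rgs and G protein genes outside the rule 0 were called, and Rgs4 was at 1097 and 1058, then 1079 and 989. A p that missed the threshold does not show that these genes were equal in both groups.

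Of 19 pericyte genes tested 3 fell and 0 rose, beside 0.616% called lower among all genes, and 15 had a negative fold change. The 3 were Ifitm1, Art3 (138 and 170, then 105 and 111 CPM) and the amino acid transporter gene Slc38a11 (267 and 259, then 198 and 216). The 6 core pericyte genes did not pass, with a median log2 fold change of -0.20. Vtn was at 1697 and 1624 CPM in controls and 1534 and 1535 in knockouts. With a contractile limit of 60 in place of 40 none of Ifitm1, Art3 and Slc38a11 passed.

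In the Notch list 1 of 13 genes fell, beside 0.616% of all genes. Hes1, a Notch target and transcriptional repressor (chromosome 16, 30064384 to 30067796, plus strand), went from 748 and 723 to 499 and 515 CPM (log2 -0.54, SE 0.06, adjusted p = 2.14e-05). On unscaled totals Hes1 was at 392 and 398 CPM in the Lama4 controls and 774 and 747 in the Lama5 controls. Its log2 ratio of mean CPM, knockout over control, was -0.63 in members and -0.78 in Rgs5-low cells. The receptor Notch3 was at 807 and 818, then 763 and 718, and the target genes Heyl, Hey2 and Nrarp had log2 fold changes of 0.18, -0.21 and 0.00. Of 23 genes of PDGF, TGF-beta and BMP signalling, Id1, a BMP target, fell by 0.33. Of 26 transcription factors tested 1 rose (Nr4a1) and 4 fell: Mef2c by 0.22, Tbx2 by 0.43, Foxs1 by 0.36 and Klf2 by 0.55.

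The other lists are given beside the 3.35% called among all genes. Among 15 receptors for vasoactive signals Npy1r fell from 466 and 423 to 375 and 344 CPM, and the endothelin receptor gene Ednra was at 221 and 194, then 221 and 203. Among 16 genes of nitric oxide and cyclic nucleotide signalling Pde4b, a cyclic AMP phosphodiesterase, rose by 0.53. Among 14 basement membrane genes Sparcl1 rose by 0.19 and Col4a3, at 19.8 and 17.5, then 4.12 and 8.87 CPM, fell by 1.51. The main type IV collagen gene Col4a1 was at 552 and 597, then 562 and 552. Among 24 adhesion genes the collagen and laminin receptor gene Itga1 fell by 0.26 and the syndecan gene Sdc4 rose by 0.37. Adamts1 was the 1 called of 20 other matrix genes and rose from 1060 and 1151 to 1902 and 1492 CPM. Among 17 genes of hypoxia and mitochondria Ier3 and Vegfa rose, the latter marked as possible free RNA. None of 13 gap junction and contact genes and none of 12 YAP targets was called. Among 9 cytokine genes Cxcl1 rose and Il34, Ackr3 and Kitl fell, and Ccl4 was higher but possible free RNA. Of 14 interferon genes Ifitm3 and B2m were higher, B2m as possible free RNA. The marker lists of endothelial cells, microglia, astrocytes, oligodendrocytes and fibroblasts held 0 called genes. Their fold changes were not centred on 0: 12 of 12 oligodendrocyte markers were negative (median -0.91) and 7 of 9 microglial markers positive (median 0.78), and their part in the results was not tested. Ttr, a choroid plexus transcript, was at 0 and 0.605 CPM in controls and 94.7 and 71.0 in knockouts and is possible free RNA.

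The direction of the genes called in members was also read in other cells of these libraries. Of the 305 the log2 ratio of mean CPM had the members' sign for 251 in Rgs5-low cells and 253 below the contractile limit. It did so for 244 in endothelial, 202 in myeloid and 159 in astrocyte-gated cells. The same count over all genes was not made, so these counts have no share to be read against. Whether the knockout effect in members differed from that in neighbouring cells was tested with an interaction term. Against Rgs5-low cells 6 of 8711 genes (0.0689%) passed. Of these Tmeff2, Mal, Mog and Tubb4a, with differences of -5.32 to -3.76 on the log2 scale, are possible free RNA of oligodendrocytes, whose marker sum above varied between libraries of 1 group. Hspa1b was at 1363 and 1271 CPM (unscaled) in controls and 597 and 558 in knockouts in members, against 217 and 245, then 209 and 257 in Rgs5-low cells, a difference of -1.18 (SE 0.16, adjusted p = 0.0372). Mt1 differed by 0.97 (SE 0.15), with 466 and 566, then 1174 and 998 CPM in members and 1295 and 1113, then 1315 and 1303 in Rgs5-low cells. With DESeq2 0 genes passed this comparison and 91 had an unadjusted p under 0.05, against 537 with edgeR. In each of these 4 libraries Rgs5-low cells held more Mt1 and less Hspa1b than members.

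Against Rgs5-high cells below the contractile limit 6 of 8934 genes (0.0672%) passed. Hspa1b differed by -0.91, Hspa1a by -0.63 and Hsph1 by -1.05, and Akap12, which anchors protein kinase A, by 0.79 (409 and 425, then 732 and 666 CPM in members, against 425 and 457, then 413 and 467). Ier3 differed by 0.87, and Hbb-bs, a globin gene, is possible free RNA. For Hsph1 and Ier3 the 2 classes moved in opposite directions. The log2 ratio of mean CPM was -0.47 in members and 0.62 below the limit for Hsph1, and 0.43 and -0.40 for Ier3. With DESeq2 1 gene passed. For Crem the difference was 1.38 (95% interval 0.70 to 2.05, edgeR adjusted p = 0.427) against the cells below the limit. Against Rgs5-low cells it was 0.83 (0.34 to 1.31, edgeR adjusted p = 0.451), so neither passed. Both intervals use a normal quantile of the SE, which can be too narrow with so few libraries, and do not cover the spread between mice. Log2 ratios of mean CPM for Crem were 1.44 in members, 0.66 in Rgs5-low cells and 0.12 below the limit, and for Nr4a3 they were 0.83, 0.17 and 1.64. For Gm42418 they were 0.97, 0.98 and 0.96, with 0.90 in endothelial and 0.93 in myeloid cells.

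For Lama4-/- no test was possible, and genes were named by size: at least 50 CPM in the knockout or on average in the controls, at least 2-fold from each control in 1 direction, and exact 95% Poisson intervals that overlap neither. Of 3373 genes 12 passed (0.356%), 3 higher (0.0889%) and 9 lower (0.267%), Lama4 among the latter. Il6, an inflammatory cytokine, was at 40.3 and 63.1 CPM in controls and 3.94 (3 UMIs, interval 0.813 to 11.5) in Lama4-/-. In members of the Lama5 experiment Il6 was at 0.6194 and 2.498 CPM in controls and 2.3829 and 10.953 in Tek-Cre:Lama5-/-. The Lama4-/- level lay within that range, and both Lama4 controls lay above it. Below the contractile limit Il6 was at 51.043 and 1.425 CPM in the Lama4 controls. Adamts4 was at 113 and 193, then 32.9 CPM, Ncapd3, a condensin subunit gene, at 77.2 and 79.3, then 27.6, and Hopx, a homeodomain gene, at 72.5 and 62.5, then 27.6. Ptgis was higher, at 23.5 and 26.2, then 53.9. In Rgs5-low cells, which the free RNA mark leaves out, Ptgis was at 351 and 311, then 383 CPM. The other 6 are possible free RNA: Slc1a3, Slc1a2 and Aldoc of astrocytes and Hbb-bs were lower, and Ttr and Enpp2 of choroid plexus were higher. With either control left out 32 genes passed.

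**Figure D5:**
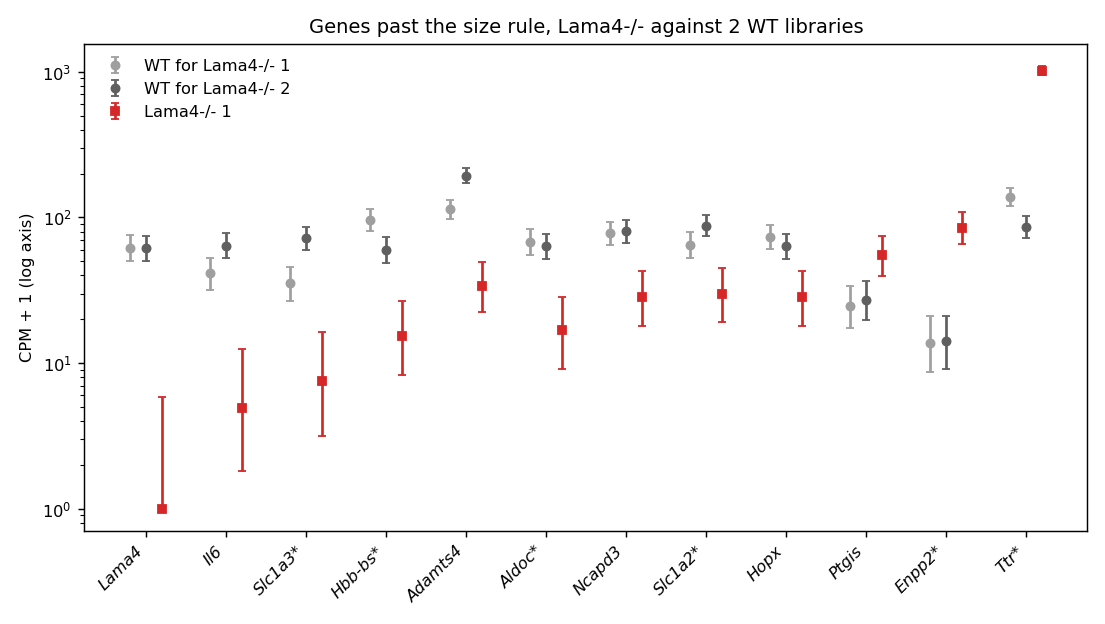
Level (CPM + 1, log axis) in members of the 2 controls (grey) and of Lama4-/- (red) for the 12 genes past the size rule, with exact 95% Poisson intervals, which cover counting error only. An asterisk marks possible free RNA, and Lama4, at 0 UMIs, is drawn at 1.

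Gene lists in Lama4-/- are described by where the knockout lay relative to both controls. Over all 3373 genes it was above both for 1501 and below both for 1084, with a median log2 ratio of 0.03. Of 25 contractile genes it was above both for 17 and below both for 3, with a median of 0.13. Pln was at 697 and 756 CPM in controls and 1187 in Lama4-/-, and Csrp1 at 801 and 792, then 1028. Of 16 pericyte genes it was above both for 9 and below both for 3, with a median of 0.11, and of the 5 core pericyte genes among these above both for 5, with a median of 0.34. Kcnj8 was at 54.4 and 106, then 131, P2ry14 at 183 and 172, then 248, and Vtn at 2417 and 2585, then 2813. Of 4 fibroblast markers at that level it was above both for 3, with a median of 0.56, and their part in these values was not tested. Higd1b and Notch3 were below both controls, at 899 and 753, then 638 and at 785 and 761, then 678. Of 14 heat shock genes 10 were below both controls, and of 21 immediate-early genes 12. The knockout library held 108 members and 760780 UMIs, so counts near 50 CPM are low.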

How the data were processed

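Droplet libraries (3′ chemistry) of dissociated mouse cortex were deposited as matrices of raw UMI counts per gene and barcode, written by the authors with Cell Ranger (software version 3.1.0 per the file headers). The submitters' processing notes also name Seurat 3.1 and the build mm10, and other steps are not given in the sources used here. Deposited totals began at 35479306 UMIs a library. Cells with at least 500 genes and under 15% mitochondrial UMIs were kept, with no further doublet caller, and 26 members were possible doublets by marker sums or depth. Of 31053 gene IDs 30934 matched the GENCODE M21 annotation of GRCm38, and promoters came from RefSeq.

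Members' counts were summed per library and tested with edgeR 4.0.16 (quasi-likelihood, TMM scaling, its default filter on low counts, Benjamini-Hochberg adjustment, threshold 0.05) on 2 libraries against 2, after removing the 11 genes of the rule from the adjustment. DESeq2 1.42.0, another scaling, other limits and left-out libraries were alternatives. Standard errors came from the fold change and its F statistic. Class ratios used a pseudocount of 1 CPM and Lama4-/- ratios one of 0.5 CPM. Poisson and binomial intervals cover counting error only. Python 3.11.15 and R 4.3.3 were used, and the fits were tested on simulated data.

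Named genes were, for each class comparison, those with the most extreme median ratio at 50 CPM with 1 direction in 7 of 7 libraries. For Tek-Cre:Lama5-/- they were the 12 highest and 12 lowest called genes of at least 30 CPM, leaving out possible free RNA, with the called genes of each list. For Lama4-/- they were all genes past the size rule. A gene that the class rule names is not reported here. Other genes were named as members of a list after their values were seen. The members, gene lists and tests were chosen with earlier results of these data known. Replicate libraries differed by more than sampling noise.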

Additional observations from a re-analysis of the deposited data

Results flagged for a closer look

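An interaction term between the knockout and the class passed with edgeR for 12 gene and class pairs, of which 5 are possible free RNA, while DESeq2 passed 0 and 1 in the 2 comparisons. Against Rgs5-low cells the differences in log2 fold change were -5.32 for Tmeff2, -4.39 for Mal, -4.40 for Mog and -3.76 for Tubb4a, all possible free RNA of oligodendrocytes. They were -1.18 for Hspa1b and 0.97 for Mt1. Against Rgs5-high cells below the contractile limit they were -0.91 for Hspa1b, -0.63 for Hspa1a, -1.05 for Hsph1, 0.79 for Akap12, 0.87 for Ier3 and 3.15 for Hbb-bs, possible free RNA at 403 and 28.2 CPM in the knockout members.

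Of 60 genes called in Tek-Cre:Lama5-/- members that are named or stand in a list, the Lama4-/- library lay beyond both of its controls in the opposite direction for 34, in the same direction for 11 and in neither way for 15. Over the 3373 genes at 50 CPM that library lay above both controls for 1501 and below both for 1084. These counts are not matched to the direction in Tek-Cre:Lama5-/-. The share of opposite directions over all genes was not counted, so 34 of 60 has no share beside it. The difference between the knockouts was not tested, and Ccl4 and Vegfa below are possible free RNA. Among those higher in Tek-Cre:Lama5-/- the Lama4-/- log2 ratios were Uap1 -0.54, Adamts4 -2.20, Homer1 -0.68, Crispld2 -1.02, Gm42418 -0.079, Usp38 -0.37, Mt1 -0.77, Adamts9 -0.61, Tuba4a -1.45, Crem -0.25, Sdc4 -0.26, Nr4a3 -1.06, Pde4b -0.56, Fosl2 -0.23, Sparcl1 -0.040, Fosb -0.16, Ifitm3 -0.43, Ccl4 -0.42, Nr4a1 -0.57, Adamts1 -0.25, Ier3 -0.75, Vegfa -1.08 and Egr1 -0.35. Among those lower they were Gm14005 0.074, Inafm1 0.68, Gm26532 0.30, Tmem165 0.19, Id1 0.27, Foxs1 0.094, Il34 0.18, Tbx2 0.30, Itga1 0.14, Fos 0.15 and Dusp1 0.24.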

How the results depend on the processing

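With 2 libraries a group from 1 pool each, p-values measure only the spread between libraries, and depth limits genes of low CPM. For Tek-Cre:Lama5-/- 305 genes were called. DESeq2 gave 109 (of 1088 genes with an adjusted p, 107 shared), no filter on low counts 12, a stricter cell filter (1000 genes, 10% mitochondrial) 169, possible doublets left out 466, and 1 library left out 200 to 405. The replicate block gave 400, and same-numbered libraries deviated with a correlation of -0.181, so the numbers do not pair them. The crossed pairing, added after seeing the data, gave 525. Other alternatives gave 232 to 314.

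The interaction with Rgs5-low cells (6 genes) gave 0 with DESeq2 (91 at an unadjusted p under 0.05, against 537 with edgeR), 138 without a filter, 17 without possible doublets, 29 at an Rgs5 limit of 30, 11 with RLE scaling, 12 with the stricter filter and 7 to 160 with 1 library left out. That with cells below the contractile limit (6 genes) gave 1, 25, 11 and 42 under the first 4 of these, and 6 to 61 with 1 library left out. The wild-type pools (1673 genes) gave 375 with DESeq2, 1042 without a filter, 1895 with the replicate block and 734 to 1660 with 1 library left out. The cause of these changes was not tested.

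The share of cells kept in Tek-Cre:Lama5-/- minus controls, -0.07 points, was 0.161 with the stricter filter, 0.459 with cells thinned to 2000 UMIs and -0.226 to 0.094 with 1 library left out. Among contractile-gated cells the difference of -6.63 points was -4.79 with cells thinned to 2000 UMIs and ran from -8.35 to -4.91 with 1 library left out. For Lama4-/- among cells kept the difference ran from -1.64 to -1.29 with 1 control left out. The Lama4-/- size rule (12 genes) gave 23 at 20 CPM and 32 without either control. Of 60 named genes followed, 0 changed direction and 6 kept their call under every alternative run.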
